A study of Mus musculus with 12 samples.

Results

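Sequence changes in retinal regulatory elements were compared between 2 promoters, to ask whether a change has the same effect on reporter activity upstream of a rhodopsin promoter (pRho) as upstream of a Crx promoter (pCrx). The members are the 13717 modified elements among the 14987 elements of the library, each paired with the unmodified element of its own genomic region, its parent. Membership was decided by sequence alone: an element was a member where its designed sequence differed from the unmodified sequence of its region. Of the 1270 unmodified elements, 1265 had at least 1 modified version. The effect of a change was the log2 activity (cDNA over DNA) of the variant minus that of its parent, and the promoter difference was the effect on pCrx minus the effect on pRho. A negative promoter difference therefore says that the change was more harmful, or less helpful, on pCrx.

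Activity was read by CRE-seq, where many elements are assayed at once: each, 100 bp long, stands upstream of a promoter and DsRed, and barcodes of 13 bp in the transcript report its output. Retinas of wild-type CD1 mice were taken on postnatal day 0, electroporated with the pRho or the pCrx library together with a plasmid named CAG-GFP, and kept as explants for 8 days. Both groups share strain, genotype, age, the co-electroporated plasmid and the culture, and differ in the promoter only. For each promoter 3 pools of 5 retinas served as replicates, and every pool gave 1 cDNA and 1 DNA library, so 12 libraries in all. A plasmid reporter in pooled whole retinas reads the sum over all electroporated cells, so cell types cannot be told apart, and with barcodes as the only transcript read the tissue could not be checked against marker genes.

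Photoreceptor genes are controlled by the homeodomain factors CRX and OTX2, which carry a lysine at position 50 of the homeodomain (K50) and bind TAATCC and close relatives. Homeodomains with glutamine at that position (Q50) prefer TAATTA-like sites, and their sites differ from K50 sites in the bases after TAAT. A dimer site holds a pair of K50 sites in opposite orientation, called arms here, and a monomer site holds 1. The rhodopsin promoter is active in rods and itself depends on CRX and the leucine zipper factor NRL, and the Crx promoter drives the gene of CRX in photoreceptor precursors and photoreceptors.

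The library changed such sites in several ways, called design classes here, that the element names distinguish. Single K50 monomer sites, 1 or both arms of K50 dimers, Q50 sites, or all K50 or all Q50 sites of an element were inactivated. In a dimer set and a monomer set of 100 regions each, a window of 13 bp around the site was changed base by base, its spacer was swapped, and bases were deleted or inserted. Windows are read on the strand where the sequence from position 2 matches TAATCC better. The first core is at positions 2 to 5, the spacer at 6 to 8, the second core at 9 to 12 and the flanks at 1 and 13. In 10 dimer windows both strands matched equally and the listed strand was kept, so which core is first there is arbitrary. Up to 64 variants share 1 parent (median 3), so variants of a region are not independent of each other.

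The variants below show the kinds of outcome that follow. Each line gives the mm9 position of the element, the change and its outcome, and then the unmodified sequence around the change. Capitals mark the changed or deleted bases. Positions start with 1 at the first base of an element. In a token such as T81G the parent's base comes first, then the position, then the base of the variant.
chr11:54119023-54119122, T81G, fell on both promoters: tccttcTgtatgc
chr6:31242227-31242326, A72T, rose on both promoters: agtaggAtaatcc
chr7:123275930-123276029, T83G, fell on pCrx only: ataggcTtaagtg
chr2:178883023-178883122, T89G, fell on pCrx only: atcctcTtagcgg
chr16:64873307-64873406, T50C, fell on pRho only: agaggaTtacacg
chr2:125495585-125495684, deletion, fell on pRho only, before: gactgataatCtGcttagtctg
chr2:125495585-125495684, deletion, fell on pRho only, after: gactgataattcttagtctg
chr1:134310730-134310829, A39G, rose on pCrx only: tcctttAatcctc
chr14:48846549-48846648, A60C, rose on pCrx only: actgatAatcagc
chr7:73255703-73255802, A56G, rose on pRho only: ttcaggAttaaca
chr14:70700072-70700171, A80C, rose on pRho and fell on pCrx: gttttaAtcatct
chr12:117389144-117389243, T69G, rose on pRho and fell on pCrx: agtggaTtagacc
chr3:65415616-65415715, A64C, rose on pRho and fell on pCrx: gcagtaAtcagat
chr7:143328517-143328616, A57C T63G, fell on pRho and rose on pCrx: cagtaaAgctgcTtagcct
chr7:128103854-128103953, A39G, fell on pRho and rose on pCrx: cagttaAtcctcc
The second A of a TAAT core, read on either strand, is the changed base of T50C, which fell on pRho only, of A80C, T69G and A64C, which rose on pRho and fell on pCrx, and of A39G in chr7:128103854-128103953, which did the reverse. Read along the core, A80C, T69G and A64C are A to C, while T50C and A39G in chr7:128103854-128103953 are A to G. Changes of this core base are thus found under several outcomes. The shared outcome of the listed A to C changes does not extend to variants described below. There, A to C at this base fell on pCrx only (T90G) or on pRho only (T34G). It also rose on both promoters (T31G), and fell on pRho while rising on pCrx (A51C).

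The next 4 windows are shown whole because each of their bases was changed to every other base. Capitals here mark the first core and, in dimers, the second core, and the strand is the one the site reads on.
chr3:104769978-104770077, positions 56 to 68, plus strand, dimer: cTAATcctCTTTg
chr11:108159416-108159515, positions 58 to 70, minus strand, dimer: cTAATcagCTTAa
chr16:64873307-64873406, positions 41 to 53, minus strand, monomer: gTAATcctctcag
chr14:48846549-48846648, positions 58 to 70, plus strand, dimer: aTAATcagCTTAg
These regions were chosen after their values were seen, for the number of calls they hold, and are described without a test of their own.

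Library totals ran from 24726849 to 36500857 reads, and medians over elements were 1219 to 2328 reads in a library. All 14987 elements passed the minimum of 10 DNA reads in each DNA library. The median standard error of a promoter difference was 0.184 log2 over replicate pools. It was 0.279 when the 6 or 7 barcodes of an element were taken as the units, which also counts differences between barcodes. All replicates share the same barcodes, so the edgeR standard errors below leave barcode differences out. Across variants, effects correlated at r = 0.90 to 0.93 between pRho replicates, at 0.86 to 0.88 between pCrx replicates and at 0.48 to 0.53 between a pRho and a pCrx replicate (n = 13717 variants, which share parents, libraries and barcodes). With each element's barcodes divided into 2 sets, 1 set against the other gave r = 0.69 for pRho effects, 0.75 for pCrx effects, 0.41 and 0.45 for a pRho against a pCrx effect, and 0.56 for the promoter difference.

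Many changes acted differently on the 2 promoters, more often to the disadvantage of pCrx. The promoter difference passed for 5323 of 13717 variants (38.8%), lower on pCrx for 3251 (23.7%) and higher for 2072 (15.1%), by edgeR's quasi-likelihood test with Benjamini-Hochberg adjustment over all variants at 0.05. These variants lay in 848 of the 1265 regions. With barcodes as units (limma, 13688 variants tested) 2056 passed (15.0%), 1504 lower (11.0%) and 552 higher (4.03%), and 2041 of the 5323 edgeR calls were among them with the same sign. The smallest difference called was 0.35 log2 and the largest not called was 1.31.

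Effects themselves were more often falls than rises on both promoters. On pRho 7322 variants passed (53.4%), with 5403 falls (39.4%) and 1919 rises (14.0%). On pCrx 8121 passed (59.2%), with 6431 falls (46.9%) and 1690 rises (12.3%; edgeR). The limma test over barcodes passed 3459 falls (25.3%) and 810 rises (5.92%) on pRho, 31.2% in all, and 4064 falls (29.7%) and 702 rises (5.13%) on pCrx, 34.8% in all. The mean effect over all variants was -0.21, -0.23 and -0.24 log2 in the 3 pRho replicates and -0.30, -0.34 and -0.32 in the 3 pCrx replicates. All 3 pCrx values lay below all 3 pRho values. The difference of the means was -0.096, with a two-sided exact permutation p of 0.1, which is the smallest that 20 arrangements of 3 against 3 allow. With each region counted once it was -0.052.

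Concordant effects, passed on both promoters in the same direction, were found for 4535 variants (33.1%), 3824 falls and 711 rises. For 2769 of them the promoter difference did not pass. For the other 1766 it passed, and the effect was larger on pCrx for 1109 and larger on pRho for 657. An effect passed on neither promoter for 3436. That order turned under stricter calls. By the barcode test 2271 variants were concordant and 7064 passed on neither, and with effects of at least 0.5 log2 the counts were 2733 and 6104.

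The concordant falls ranked first by their smaller effect removed most of an element's activity on either promoter. In chr11:54119023-54119122, T81G changed the flank base at position 13 of a dimer window, outside both cores. Its effects were -2.64, -2.84 and -3.13 log2 in the pRho replicates and -3.48, -3.07 and -3.09 in the pCrx replicates. The ranges overlap, and activity was 7.24-fold lower on pRho and 9.21-fold lower on pCrx. The promoter difference of -0.35 ± 0.19 (SE, edgeR adjusted p = 0.153) did not pass. Inactivating all K50 sites of chr4:139687655-139687754 by T10G T47G A86C gave -3.07, -3.74 and -3.07 on pRho and -2.89, -2.87 and -2.89 on pCrx, with a difference of 0.40 ± 0.22 (SE, edgeR adjusted p = 0.151). Changing both arms of the dimer in chr3:96503081-96503180 by A36C T42G gave -2.88 ± 0.14 on pRho and -2.66 ± 0.14 on pCrx (SE), again with overlapping replicates.

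The 3 leading concordant rises came from parents that were weak on at least 1 promoter. Parent activity, with the library's typical element at 0, was -2.20 on pRho and -3.26 on pCrx for chr15:53019956-53020055, whose dimer was changed in both arms by A9C T15G. Its effects were 3.12, 2.83 and 3.08 on pRho and 3.93, 4.49 and 3.50 on pCrx, and every pCrx value lay above every pRho value. The promoter difference of 0.89 ± 0.22 (SE) passed in edgeR (adjusted p = 0.00102) and did not pass with barcodes as units (limma adjusted p = 0.182). T31G in chr7:135012900-135012999 gave 2.64 ± 0.14 and 3.08 ± 0.14, and A72T in chr6:31242227-31242326, a change of the base before TAATCC, gave 2.86 ± 0.13 and 2.46 ± 0.13 (SE, pRho and pCrx). The promoter differences of these 2 variants did not pass (edgeR adjusted p = 0.071 and 0.0709).

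Effects limited to pCrx, passed there but not on pRho and with a promoter difference that passed, were found for 1649 variants (12%) in 382 regions, 1219 falls and 430 rises. With barcodes as units 914 were limited to pCrx, and 557 of the 1649 kept this category. The ranking of the 2 limited categories depended on the fit. With each promoter fitted on its own 6 libraries, an alternative chosen after seeing the data, 1361 were limited to pCrx and 1378 to pRho, with 7388 effects that passed on pCrx and 8232 on pRho.

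The 3 falls on pCrx with the largest promoter differences all change the first T of a TTA, which reads TAA on the other strand. The first and second of them lie in single K50 sites of dimer-set elements, and the other in a dimer window. In chr8:61013519-61013618, which is well above the typical element on both promoters (1.27 on pRho, 2.48 on pCrx), T90G gave -0.29, -0.19 and -0.092 on pRho and -2.67, -2.55 and -2.36 on pCrx. Every pCrx replicate fell far below every pRho replicate. The element lost activity 5.82-fold on pCrx, and the promoter difference was -2.35 ± 0.18 (SE, edgeR adjusted p = 3.78e-15, limma with barcodes 0.000307). T83G in chr7:123275930-123276029 gave -0.20, 0.12 and -0.20 on pRho and -2.43, -2.52 and -2.31 on pCrx, a difference of -2.31 ± 0.18 (SE, edgeR adjusted p = 5.57e-15). On pCrx this took the element from 1.21 to -1.20, while on pRho it stood at -0.26 before and -0.37 after the change. T89G in chr2:178883023-178883122 gave 0.24, 0.31 and 0.30 on pRho and -2.14, -2.18 and -1.76 on pCrx. Its pRho effect of 0.28 ± 0.13 (SE) was just short of the threshold (edgeR adjusted p = 0.0649) and passed in 3 of the alternatives run, in each of which the variant would count as opposite.

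The 3 leading rises limited to pCrx started from elements that were weak on both promoters. A39G in chr1:134310730-134310829, where the parent stood at -2.29 on pRho and -3.38 on pCrx, gave -0.099, 0.036 and -0.029 on pRho and 2.58, 2.39 and 1.88 on pCrx. The pRho values lie on both sides of 0 and all pCrx values lie far above them, a promoter difference of 2.28 ± 0.22 (SE, edgeR adjusted p = 3.6e-12, limma with barcodes 0.0132). A60C in chr14:48846549-48846648 gave 0.30, -0.15 and -0.22 and 2.98, 1.83 and 1.99, and T25G A85C, which inactivate all K50 sites of chr4:150656333-150656432, gave -0.24, 0.16 and 0.67 and 2.16, 2.45 and 2.64 (pRho and pCrx). In both, the lowest pCrx replicate lay above the highest pRho replicate.

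Effects limited to pRho were found for 1189 variants (8.7%) in 347 regions, 747 falls and 442 rises. With barcodes as units 464 were limited to pRho, and 282 of the 1189 kept this category. The leading fall was T50C in chr16:64873307-64873406, which changes the second A of TAATCC on the minus strand of a monomer window. Its effects were -2.19, -2.10 and -2.21 on pRho and 0.20, 0.25 and -0.35 on pCrx. All pRho replicates fell by over 2 log2 units while the pCrx replicates lay on both sides of 0, and the promoter difference was 2.20 ± 0.18 (SE, edgeR adjusted p = 2.15e-14, limma with barcodes 0.00166). In chr2:125495585-125495684 a deletion of 2 bp between the arms of a dimer gave -2.07, -1.53 and -1.55 on pRho and 0.037, 0.30 and 0.21 on pCrx, a 3.3-fold loss on pRho. T34G in a K50 monomer site of chr8:13228548-13228647 gave -1.94 ± 0.13 on pRho and -0.23 ± 0.13 on pCrx (SE), and the pCrx effect passed when pCrx replicate 3 was left out.

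The 3 leading rises limited to pRho came from parents that were far weaker on pRho than on pCrx. The changes T32G A40C T47G in chr3:68740169-68740268, at -2.17 on pRho and -0.19 on pCrx, gave 2.25, 2.25 and 2.50 on pRho and -0.64, -0.22 and -0.19 on pCrx. A56G, 1 base change in a monomer window of chr7:73255703-73255802, gave 1.96, 1.86 and 2.25 on pRho and -0.20, 0.19 and -0.22 on pCrx. It brought the element from -1.54 to 0.47 on pRho, beside 0.30 and 0.23 on pCrx, with a promoter difference of -2.10 ± 0.19 (SE, edgeR adjusted p = 4.12e-13, limma with barcodes 4.5e-05). A21C A68C in chr8:109492402-109492501 gave 2.08 ± 0.16 and 0.037 ± 0.15 (SE, pRho and pCrx).

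Opposite effects, passed on both promoters with opposite signs, were found for 627 variants (4.6%) in 194 regions. Of these, 453 rose on pRho and fell on pCrx, and 174 fell on pRho and rose on pCrx. The 10 regions with the most opposite variants held 30.1% of them. The median size of the promoter difference was 1.29 log2, against 0.35 over all variants. The rule for this category favours large values, since passed effects of opposite sign add up in the difference. Where barcodes were the units 140 variants were opposite, all of them among the 627, and 262 were left where both effects had to reach 0.5 log2.

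The 4 leading variants that rose on pRho and fell on pCrx had effects of 1.25 to 1.39 on pRho and of -1.82 to -1.30 on pCrx. A80C, in 1 arm of a dimer in chr14:70700072-70700171, gave 1.49, 1.40 and 1.26 on pRho and -1.22, -1.59 and -1.58 on pCrx. The parent stood at -1.02 on pRho and 1.30 on pCrx, and the variant at 0.37 and -0.17. Both effects passed by edgeR (adjusted p = 5.18e-16 and 3.3e-17) and with barcodes as units (limma adjusted p = 1.18e-05 and 8.84e-06). T69G in chr12:117389144-117389243 gave 1.21, 1.31 and 1.46 on pRho and -1.54, -1.78 and -1.09 on pCrx. Inactivating all sites of chr11:88917445-88917544 by T36G A70C A87C gave 1.36, 1.30 and 1.23 on pRho and -1.62, -2.09 and -1.74 on pCrx, with the largest promoter difference of the named variants, -3.12 ± 0.18 (SE, edgeR adjusted p = 1.04e-19). A64C in chr3:65415616-65415715 gave 1.27, 0.99 and 1.505 and -1.17, -1.44 and -1.29 (pRho and pCrx). In these 4 elements the parents were more active on pCrx than on pRho by 2.32, 2.89, 3.37 and 2.72 log2, and the variants by -0.54, 0.11, 0.25 and 0.16.

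Variants that fell on pRho and rose on pCrx were fewer and rested on less firm evidence. A57C T63G, in both arms of a dimer in chr7:143328517-143328616, gave -0.94, -0.88 and -1.29 on pRho and 1.71, 1.90 and 1.77 on pCrx, a promoter difference of 2.84 ± 0.26 (SE, edgeR adjusted p = 1.31e-12). A39G in a monomer window of chr7:128103854-128103953, which changes the second A of TAATCC, gave -0.95, -0.98 and -0.61 and 0.85, 1.15 and 0.59 (pRho and pCrx), and both effects passed with barcodes as units (limma adjusted p = 0.0192 and 0.0073). For A57C T63G, for the deletion of 2 bp in chr13:104839111-104839210 (-0.86 ± 0.19 on pRho, 0.95 ± 0.18 on pCrx, SE) and for A51C in chr11:72488951-72489050 (-0.93 ± 0.17 and 0.84 ± 0.16) the pRho fall did not pass with barcodes as units (limma adjusted p = 0.333, 0.313 and 0.155). The pCrx rise of A51C did not pass there either (limma adjusted p = 0.0968).

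Of the other variants, 1310 passed on pCrx alone and 971 on pRho alone without a promoter difference that passed, so they are not called limited to a promoter. Neither effect passed for 3344 without a promoter difference and for 92 with one.

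The outcome of a change went with how active its parent was on each promoter. The parent enters the effect as the value that is subtracted, so a parent measured too high on pCrx lowers the pCrx effect as well, and the counts over categories are descriptions. Over all variants 52.8% had a parent more active on pCrx than on pRho, with activity in each library taken relative to its typical element. That share was 96.7% for variants that rose on pRho and fell on pCrx, whose parents had median activity of -1.25 on pRho and 0.87 on pCrx. It was 88.0% for rises limited to pRho and 78.7% for falls limited to pCrx. It was 24.8% for falls limited to pRho, 35.6% for rises limited to pCrx and 21.3% for variants that fell on pRho and rose on pCrx.

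The relation was also measured with the parent's activity taken from 1 set of its barcodes and the effects from the other set, so that no barcode was in both. Parents were ranked by how much more active they were on pCrx and divided into 4 equal groups. In the group that favoured pRho most, with a gap of at least 0.51 or 0.48 log2 depending on the set, the mean promoter difference of the variants was 0.17 and 0.16. In the group that favoured pCrx most it was -0.35 and -0.41. The groups between had 0.011 and 0.005, and then -0.20 and -0.18. Effects on pRho moved most across the groups, from -0.41 and -0.35 among parents that favoured pRho to 0.030 and 0.060 among those that favoured pCrx, while effects on pCrx ran from -0.24 and -0.19 to -0.32 and -0.35. Across the 13717 variants the gap and the promoter difference correlated at r = -0.30 and -0.35 between sets, and at -0.47 with all barcodes on both sides.

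Over elements with all sites inactivated, the gap between promoters had a smaller spread than over their parents, but in 2 of the 3 classes single elements had a smaller gap about as often as over all variants. In dimer-set elements with all sites changed, the SD over 89 elements of the gap between pCrx and pRho activity was 0.89 before and 0.61 after the change, and the gaps before and after correlated at r = 0.10. In the 38 monomer-set elements with all sites changed it was 0.97 before and 0.51 after (r = 0.43), and in the 361 elements with all K50 sites inactivated 0.81 and 0.71 (r = 0.36). The gap was smaller in the variant than in its parent for 47 of 89, 29 of 38 and 188 of 361 of them (52.8%, 76.3% and 52.1%), beside 52.8% of all variants. Spacer swaps in dimers left it nearly as it was, at 0.86 and 0.88 over 1108 variants, with r = 0.87.

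Changes within K50 dimers were among the design classes with the most negative mean promoter differences, next to whole dimer sites of the dimer set and elements of the monomer set with all sites changed. With 1 arm changed (461 variants) the mean effect was -0.12, -0.18 and -0.16 log2 in the pRho replicates and -0.40, -0.41 and -0.40 in the pCrx replicates. The groups do not overlap, and the difference was -0.25 by the mean and -0.16 by the median over variants. The promoter difference passed for 53.8% of these variants, 167 lower and 81 higher on pCrx, beside 38.8% of all variants. With both arms changed (230 variants) the values were -0.20, -0.24 and -0.23 on pRho and -0.53, -0.53 and -0.51 on pCrx, a difference of -0.30 (median -0.24), with 88 lower and 47 higher. Opposite effects made up 10.4% and 11.7% of these 2 classes against 4.57% of all variants, and 41 of 48 and 22 of 27 of them were falls on pCrx.

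Single K50 monomer sites differed less between promoters. Over 1264 sites the mean effect was -0.34, -0.37 and -0.38 in the pRho replicates and -0.43, -0.48 and -0.43 in the pCrx replicates, a difference of -0.085, with 349 variants lower and 246 higher on pCrx (27.6% and 19.5%, beside 23.7% and 15.1% of all variants). Single Q50 sites (229) gave -0.16, -0.15 and -0.13 on pRho and -0.18, -0.19 and -0.20 on pCrx, with 43 lower and 39 higher. All Q50 sites together were changed in only 17 elements, with 4 lower and 3 higher. Because the classes hold different regions and no test between classes was made, these are side-by-side values.

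Removing every K50 site gave effects of nearly the same mean on both promoters and many differences in single elements. Over 361 elements the mean effect was -0.65, -0.72 and -0.71 on pRho and -0.69, -0.70 and -0.65 on pCrx, which overlap, with a difference of 0.014 by the mean and 0.087 by the median. Even so the promoter difference passed for 60.4%, 105 lower and 113 higher on pCrx, and 59.8% were concordant. With barcodes as units 29.4% passed, beside 15.0% of all variants, and the order turned, with 62 lower and 44 higher. Over all variants the edgeR difference passed for 38.8%, 33.1% were concordant and 4.57% opposite. In dimer-set elements with all sites changed (89) the replicate means overlapped as well, 62.9% passed, and mean and median differed in sign (-0.023 and 0.071). In monomer-set elements with all sites changed (38) the pCrx replicates, -0.75, -0.81 and -0.80, lay below the pRho replicates, -0.43, -0.56 and -0.52. The difference was -0.28 by the mean and -0.32 by the median, and 15.8% were opposite. Single K50 sites of dimer-set elements (128) and whole dimer sites of that set (74) had differences of -0.24 and -0.27, and 62.5% and 71.6% passed. With each region counted once the former was -0.16.

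The place of a site in the element went with its promoter difference. Sites were grouped by the position of the changed base. For K50 monomer sites changed within the first 33 bases of the element (310) the mean effect was -0.23, -0.26 and -0.25 on pRho and -0.25, -0.27 and -0.27 on pCrx, which overlap. From position 34 to 66 (635 sites) it was -0.38, -0.39 and -0.42 and -0.44, -0.49 and -0.43. From position 67 on (319 sites) it was -0.37, -0.44 and -0.45 and -0.60, -0.68 and -0.58, so that the difference went from -0.015 through -0.061 to -0.202. With barcodes as units 18, 88 and 69 of these sites were lower on pCrx and 9, 38 and 20 higher. In either direction 8.71%, 19.8% and 27.9% were called, beside 15.0% of all variants. Changes of 1 dimer arm had the same order, with differences of -0.11, -0.21 and -0.44 over 115, 213 and 133 variants. For Q50 sites there was no such order (-0.018, -0.13 and 0.053 over 52, 99 and 78 sites). Later positions are those nearer the end of the listed sequence, and its orientation to the promoter was not given in the labels.

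Promoter differences also varied with the sequence of the monomer site. For TAATCC, the preferred CRX site (676 sites), the difference was -0.058, and for TAATCT (298) -0.046. TAAGCC (185) gave -0.12, from -0.16, -0.20 and -0.21 on pRho and -0.31, -0.33 and -0.30 on pCrx. The 22 TAATCG sites gave -0.26, -0.26 and -0.29 on pRho and -0.76, -0.83 and -0.62 on pCrx, a difference of -0.47, with 11 of 22 lower on pCrx by edgeR and 4 by limma with barcodes as units. TTATCC and AAATCC, 33 sites each, gave -0.28 and -0.13. The groups of 22 and 33 sites are small, and their order was not tested.

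By the mean over zones, base-by-base changes had the largest promoter differences in the first core and, in dimers, also in the second core. The counts below include single-base changes that the element names list under other series. In the dimer set the first core gave -0.36, -0.40 and -0.39 on pRho and -0.48, -0.55 and -0.52 on pCrx, with 31.2% of 1197 changes lower and 16.2% higher on pCrx. The second core gave -0.22, -0.25 and -0.23 and -0.35, -0.41 and -0.38, with 29.0% of 1198 lower and 12.6% higher. The spacer gave a smaller difference of -0.053 (20.1% lower, 13.7% higher), and the flanks gave overlapping replicates with 6.5% lower and 6.17% higher. Within the spacer, position 6 gave -0.105, and positions 7 and 8 gave 0.010 and -0.063. Core positions 5 and 12 gave -0.106 and -0.095, so position 6 did not stand apart from the cores.

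In the monomer set the difference was less sharply placed. The first core gave -0.27, -0.31 and -0.33 on pRho and -0.41, -0.48 and -0.42 on pCrx, a difference of -0.132 next to -0.133 in dimers. At positions 9 to 12, where monomers have no second arm, 11.5% of 1200 changes were lower and 6.67% higher, and the difference was -0.075 next to -0.150 in dimers. The monomer flanks, however, gave -0.109, from 0.001, -0.005 and -0.015 on pRho and -0.10, -0.13 and -0.11 on pCrx, with 15.3% of 600 lower and 6.33% higher. All changes of a window share the error of their parent, which such means include.

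Position 4, the second A of TAAT, had the most calls in dimers, with 114 of 297 changes lower and 71 higher on pCrx. These are 38.4% and 23.9%, beside 23.7% and 15.1% of all variants. Position 10, the first T of the second core, had the largest mean difference, -0.22, with 103 of 298 lower and 44 higher by edgeR (34.6% and 14.8%). By limma with barcodes 52 were lower and 2 higher, 18.1% in either direction beside 15.0% of all variants. Within position 10 T to G gave -0.24, T to C -0.21 and T to A -0.19. At position 5 of dimers the values differed with the new base. T to A and T to C gave differences of -0.14 and -0.14 over 75 sites each, while T to G, which makes TAAG from TAAT, gave 0.004 with effects of -0.092, -0.071 and -0.096 on pRho and -0.069, -0.082 and -0.095 on pCrx.

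In monomers the largest mean difference of a change at 100 sites was T to C at position 5, which makes TAAC. It gave -0.14, -0.20 and -0.20 on pRho and -0.42, -0.52 and -0.46 on pCrx, a difference of -0.29, with 34 lower and 13 higher by edgeR and 21 and 5 by limma with barcodes. Over all variants 23.7% were lower and 15.1% higher by edgeR, and 11.0% and 4.03% by limma with barcodes. T to A and T to G at the same position gave -0.086 and -0.086. At position 4 the changes A to C, A to T and A to G gave -0.16, -0.14 and -0.069. These changes were picked out from many after their values were seen.

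Some dimer spacers acted in favour of pCrx. With the spacer CCG (97 elements) the mean effect was 0.036, 0.044 and 0.055 on pRho and 0.24, 0.28 and 0.23 on pCrx, and with CGG (99) it was 0.056, 0.052 and 0.069 and 0.28, 0.24 and 0.23. In both, every pCrx replicate lay above every pRho replicate, by 0.20 and 0.19 on average. By edgeR 19 variants were higher and 2 lower with CCG, and 23 and 2 with CGG, while limma with barcodes called 4 higher with CCG, and 2 higher and 1 lower with CGG. Higher calls by edgeR made up 19.6% and 23.2% of these variants, beside 15.1% of all variants. With barcodes 4.12% and 3.03% were called in either direction, beside 15.0% of all variants. Rises passed on pCrx for 41 and 40 of the CCG and CGG variants and on pRho for 12 and 14. TGG and CCA went the other way, with differences of -0.13 and -0.14. On pCrx 28 and 24 of their variants were lower (29.2% and 24.2%, beside 23.7% of all variants), and 10 and 11 were higher. Over all 1108 dimer spacer swaps the difference was 0.026, with 141 higher and 134 lower (24.8% called, beside 38.8% of all variants).

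The same spacers in monomer windows gave smaller values, 0.033 for CCG and 0.005 for CGG, with 9 of 100 variants lower on pCrx for each and 14 and 10 higher. The largest there were CCA at -0.14 and CTT at -0.11. Over all 1131 monomer swaps the mean was -0.059, and 33.2% were called. Positions 6 and 7 hold the CC of TAATCC, so a spacer swap can change that arm too.

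On average, changes of length within the dimer lowered pCrx activity further than pRho activity. Deletions of 1 bp (231) gave -0.30, -0.30 and -0.32 on pRho and -0.48, -0.54 and -0.54 on pCrx, with 94 lower and 50 higher on pCrx. Deletions of 2 bp (221) and 3 bp (100) had differences of -0.19 and -0.095. Insertions of 1, 2 and 3 bp (100 each) had -0.17, -0.097 and -0.15. Of these, 29, 33 and 29 were lower and 15, 24 and 14 higher on pCrx. Over all variants 23.7% were lower and 15.1% higher. In monomers the same lengths gave -0.087, -0.055 and -0.079 for deletions and -0.043, -0.004 and -0.083 for insertions. Insertions of 2 bp in monomers had overlapping replicates, 0.050, 0.033 and 0.001 on pRho and 0.036, 0.044 and -0.011 on pCrx.

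Regions differed widely in their mean promoter difference. All 200 scanned regions had at least 1 variant with a promoter difference that passed. In 119 regions there were calls in both directions, in 46 only lower and in 35 only higher on pCrx. Region means ran from -1.15 to 1.07 log2, and 45.9% of the variance of the difference lay between regions. The lowest mean was that of the dimer in chr12:117389144-117389243, where 41 of 57 variants were lower and 2 higher and 19 were opposite. It was followed by the dimer in chr17:27570392-27570491 (43 of 58 lower, 23 opposite). The highest was that of the dimer in chr1:134310730-134310829, with 48 of 58 variants higher by edgeR and 10 by limma with barcodes.

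The windows shown above follow 3 courses. In chr3:104769978-104770077 changes at most bases of both arms lowered activity on pCrx by more than on pRho. Mean effects of the 3 changes at position 4 were -2.15 on pCrx and -0.86 on pRho, and at position 10 they were -1.53 and -0.24. At position 1, in the flank, they were 0.064 and -0.033. The dimer in chr11:108159416-108159515 had the same course, with -1.498 on pCrx and -0.20 on pRho at position 2, -1.36 and -0.046 at position 10. In the spacer, position 7 gave 0.16 and 0.17. In these 2 regions 46 of 58 and 44 of 59 variants were lower on pCrx, and parents were above the typical element on both promoters.

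The monomer in chr16:64873307-64873406 was sensitive on pRho and little on pCrx. At position 4 the 3 changes averaged -1.87 on pRho, from -2.17 to -1.41, and -0.19 on pCrx, from -0.45 to 0.039. Positions 2, 5, 6 and 10 averaged -1.34, -1.39, -1.39 and -1.14 on pRho, and -0.050, -0.20, -0.17 and -0.20 on pCrx. The parent stood at -0.47 on pRho and -0.74 on pCrx, below the typical element on both. In chr14:48846549-48846648, a weak element on both promoters (-2.51 and -3.07), changes raised pCrx activity. Position 4 averaged 2.28 on pCrx and 0.43 on pRho, and position 10 1.80 and 0.17. By edgeR all 3 changes at each of these positions were higher on pCrx. With barcodes as units 3 were called at position 4 and 0 at position 10. Position 1, in the flank, also averaged 0.75 on pCrx and 0.20 on pRho. At position 13 the order turned, with 0.12 on pCrx and 0.74 on pRho.

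All variants of a region share 1 parent of 6 or 7 barcodes, so its error moves them together. The 6 flank changes of a window served as another reference, chosen after seeing the data, since they lie outside the cores. They are not a neutral reference. The promoter difference against the parent passed for 12.7% of them in dimers and 21.7% in monomers, and T81G above is a flank change. Against the summed counts of the 6 flank changes 2736 of 6587 window variants had a promoter difference that passed, beside 2429 against the parent. In both, 1923 passed with the same sign. The summed reference holds more barcodes and reads than 1 parent, so the 2 counts are not like for like. The share of lower calls moved from 63.7% to 56.4%, and the mean difference from -0.10 to -0.055. In chr11:88917445-88917544 all 6 flank changes were themselves called, with a mean difference of -0.78, beside a mean of -1.01 over its 53 variants, of which 50 were lower on pCrx. The named variant T36G A70C A87C has the same parent.

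In the authors' deposited table of variant effects, 13176 modified elements were listed. There 2140 passed on both promoters in the same direction, 163 in opposite directions, 2540 on pRho only, 1939 on pCrx only and 6394 on neither. Of the 593 variants called opposite here that the authors' deposited table lists, it calls 150 opposite as well. That table tests each promoter on its own and holds no test of the difference.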

How the data were processed

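Barcode counts of 12 libraries were analysed, from 3 replicate pools of retinas per promoter, each with a cDNA and a DNA library. The deposited table holds raw read counts per barcode, per the file headers; the values are whole numbers. The tool that counted them was not given in the sources used here. Per the submitters' processing notes the build is mm9. Reads carry no molecular identifiers in the labels' protocols, so counting error is only part of the error. The authors deposited log2 expression values per element, used here as an alternative only, and a table of log2 fold changes with p-values, used only for a comparison. No column belonged to another series (0 columns).

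Counts were summed over the 6 or 7 barcodes of an element, and elements needed at least 10 DNA reads in each DNA library. Each variant and its parent formed 1 row of 24 columns (both alleles in 12 libraries), fitted with edgeR 4.0.16 (R 4.3.3) by its quasi-likelihood test with TMM factors, with Benjamini-Hochberg adjustment over 13717 variants at 0.05. The promoter difference was a contrast of this fit. Concordant variants passed on both promoters with the same sign and opposite ones with opposite signs. Limited variants passed on 1 promoter, not on the other, and passed the promoter difference. Replicate values used a prior count of 0.5. Barcodes as units were tested with limma 3.58.1 on log2 cDNA over DNA per barcode, for barcodes with at least 10 DNA reads in each DNA library. Other settings were DESeq2 1.42.0, other scaling, filters and left-out replicates, whose effect the closing section gives.

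Named variants were the first 3 of each category, or 4 of each opposite kind, ranked by the smaller effect (concordant and opposite) or by the promoter difference (limited). They needed the called sign in all replicates of each promoter on which the effect passed. With barcodes as units the promoter difference had to pass, or both effects for concordant variants. At most 1 variant of a region was taken, and none from chromosome 18. The members, classes and lists were chosen with earlier results of these data known. The fit was tested on simulated data, with a promoter difference of 0.5 or 1 log2 in 100 variants each among 13717. It recovered 14% of the former and 95% of the latter, and 1.8% of its calls were false. Far more variants passed in the real data, so these shares do not carry over directly. A replicate's DNA and cDNA come from the same pool, per the labels, but their deviations from the group means correlated at -0.039 to 0.05 only, so the fit had no replicate block. Nothing in the labels states which animals gave which pool, so p-values measure the spread between these pools. No annotation of the mm9 build was used, so elements were not assigned to genes. Control elements without a regulatory sequence were not used here, and activity is relative to the typical element.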

Additional observations from a re-analysis of the deposited data

Results flagged for a closer look

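In 20 named variants the effect differed between promoters by the test of the difference itself (edgeR's quasi-likelihood test, adjusted over all variants, and limma with barcodes as units), which is how they were selected, so their number is not a result. Values are promoter differences in log2, pCrx minus pRho.

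Falls limited to pCrx gave -2.35 for T90G in chr8:61013519-61013618, -2.31 for T83G in chr7:123275930-123276029 and -2.28 for T89G in chr2:178883023-178883122. Falls limited to pRho gave 2.20 for T50C in chr16:64873307-64873406, 1.90 for the deletion in chr2:125495585-125495684 and 1.71 for T34G in chr8:13228548-13228647. Rises limited to pCrx gave 2.28 for A39G in chr1:134310730-134310829, 2.27 for A60C in chr14:48846549-48846648 and 2.23 for T25G A85C in chr4:150656333-150656432. Rises limited to pRho gave -2.62 for T32G A40C T47G in chr3:68740169-68740268, -2.10 for A56G in chr7:73255703-73255802 and -2.05 for A21C A68C in chr8:109492402-109492501.

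Variants that rose on pRho and fell on pCrx gave -2.85 for A80C in chr14:70700072-70700171, -2.79 for T69G in chr12:117389144-117389243, -3.12 for T36G A70C A87C in chr11:88917445-88917544 and -2.56 for A64C in chr3:65415616-65415715. Variants that fell on pRho and rose on pCrx gave 2.84 for A57C T63G in chr7:143328517-143328616, 1.81 for the deletion in chr13:104839111-104839210, 1.70 for A39G in chr7:128103854-128103953 and 1.77 for A51C in chr11:72488951-72489050. For all 20 the sign held with DESeq2, with a stricter read filter on barcodes and without the barcode of highest ratio. It also held with the replicate block and with each replicate pool left out. With barcodes as units it held too, which the selection required. The named variants were not followed through the other settings.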

How the results depend on the processing

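The unit of replication moved the counts most. With barcodes as units 2056 promoter differences passed, 4269 effects on pRho and 4766 on pCrx, and 2271 variants were concordant, 914 limited to pCrx, 464 limited to pRho and 140 opposite. The share of lower calls among promoter differences went from 61.1% to 73.2%. Where effects had to reach 0.5 log2, 2733 variants were concordant and 262 opposite. With each region counted once the mean promoter difference was -0.052. The cause of these shifts was not tested, but barcode units add the spread between barcodes by construction.

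The other settings kept each of the 7 counts within 1.5 times the value reported. Promoter differences that passed numbered 5583 with DESeq2, 5319 with DESeq2-type factors, 5373 when scaled by total counts, 5009 when each element's barcode of highest ratio was left out, and 4948 with the authors' deposited expression values. Leaving out 1 replicate pool gave 4174 to 5203 promoter differences, 5779 to 7755 effects on pRho, 7366 to 7956 on pCrx, 3743 to 4421 concordant variants, 1463 to 1666 limited to pCrx, 890 to 1368 limited to pRho and 420 to 622 opposite. The mean promoter difference was then between -0.105 and -0.086.

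With the replicate pool as a block, which pairs the DNA and cDNA of a pool, 5270 promoter differences passed, and 5190 of the 5323 were among them. The block brought the pRho effect of T89G in chr2:178883023-178883122 past the threshold (0.28) and changed no other call of a named variant.

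Depth and 3 pools per promoter limit small differences, so a difference that did not pass does not show equal effects.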
